A study of Mus musculus with 16 samples.

Results

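A set of 7 marker genes of marrow myeloid precursors was followed through 16 bulk RNA-seq libraries of mouse knee joint cells. The genes were picked by symbol, with earlier results of these data known, and 7 of 7 were found among the 13733 genes of the deposited table. Elane, Prtn3, Ctsg and Mpo encode proteins of the neutrophil's primary granules, and Cebpe, Gfi1 and Myb encode transcription factors of the precursors. The libraries fell into 4 groups of 4. WT D0 were uninjured C57BL/6J mice, WT D7 were such mice 7 days after knee injury, and Trem2-/- D0 and Trem2-/- D7 were the corresponding mice without a functional Trem2 gene. Trem2 is a surface receptor of macrophages and related myeloid cells, and the knockout is of the whole animal, so every lineage of a Trem2-/- mouse carries it. The WT groups carry no engineered allele, and the injured mice also received the opioid buprenorphine and saline right after the injury. The study compared the groups to describe how joint cells respond to injury and whether Trem2 changes that response.

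The study's methods describe male mice injured at 10 weeks of age and cells released from the joint with enzymes, by a procedure meant to keep marrow cells out. Part of the sample labels instead names whole joints homogenized from diabetic and control animals, aged 16 weeks. Groups here rest on genotype and injury, which both sources give alike. Whether a library came from 1 animal or from pooled animals, and whether its cells were enriched for leukocytes, is not stated in the sources used here, so p-values measure the spread between libraries.

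Primary, or azurophil, granules are packed in the bone marrow while a neutrophil precursor is a promyelocyte. Their proteins are stored for the life of the cell, but their mRNAs are made almost only in that stage and have largely gone from the segmented neutrophil that enters blood and tissue. Elane, Prtn3, Mpo and Ctsg mRNA therefore serve as markers of immature myeloid cells of the marrow rather than of neutrophils as such. The factors PU.1, the C/EBP family and Myb are known to act on promoters of this gene group, Gfi1 is a repressor that granulopoiesis requires, and Cebpe drives the step that follows, in which secondary granules are made.

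All 7 members are protein-coding genes of GRCm38 (mm10) in the GENCODE M21 annotation. Elane lies on the plus strand at chr10:79886247-79888215, and the related protease gene Prtn3 lies beside it on the same strand at chr10:79874476-79883174. The distance from the last base of Prtn3 to the first base of Elane is 3073 bases. Mpo is at chr11:87793581-87804413 on the plus strand. On the minus strand are Ctsg at chr14:56099881-56102574, Cebpe at chr14:54710360-54712174, Gfi1 at chr5:107716657-107726036 and Myb at chr10:21124935-21160984. Exons of 4 members overlap exons of a gene on the opposite strand, over 512 bases for Mpo and Gm11505, 159 for Prtn3 and Plppr3, 559 for Myb and Gm26577 and a shorter stretch for Gfi1 and A430072P03Rik. The study's methods name a stranded library kit. How the counting treated strand is not given in the sources used here, and reads in those overlaps cannot be assigned to one gene with certainty. Stretches of 75 bases that lie wholly in shared sequence make up at most 6.94% of the distinct stretches of a member's transcripts, for Mpo. Reads that only partly reach an overlap are not counted in this share, and the Mpo overlap covers 512 of 3424 exonic bases. No stretch of Elane, Ctsg or Cebpe occurs in another annotated gene.

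The 250 bases before the start sites of the 4 granule genes are shown because these genes encode the contents that define the primary granule. They are from RefSeq (GRCm38.p6), each read 5′ to 3′ on the gene's own strand. The RefSeq starts differ from the GENCODE starts for Prtn3, Elane and Mpo. The Prtn3 window lies wholly inside the GENCODE span given above, and the Elane and Mpo windows reach into theirs. Capitals mark the letters GAGGAA, a core that PU.1 binds, and AACNG, a core that Myb binds, on either strand.
Elane promoter, chr10:79886062-79886311, plus strand: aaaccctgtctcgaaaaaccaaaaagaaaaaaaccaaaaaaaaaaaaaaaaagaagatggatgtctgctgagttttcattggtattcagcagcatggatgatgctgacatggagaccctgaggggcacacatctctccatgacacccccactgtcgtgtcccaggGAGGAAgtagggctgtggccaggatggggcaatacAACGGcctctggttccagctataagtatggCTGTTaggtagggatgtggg
Prtn3 promoter, chr10:79879417-79879666, plus strand: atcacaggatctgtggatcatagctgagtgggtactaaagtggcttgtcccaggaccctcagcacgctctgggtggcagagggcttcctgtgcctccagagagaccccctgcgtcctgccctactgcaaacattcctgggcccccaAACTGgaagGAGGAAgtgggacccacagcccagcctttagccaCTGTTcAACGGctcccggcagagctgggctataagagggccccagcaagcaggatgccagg
Mpo promoter, chr11:87793534-87793783, plus strand: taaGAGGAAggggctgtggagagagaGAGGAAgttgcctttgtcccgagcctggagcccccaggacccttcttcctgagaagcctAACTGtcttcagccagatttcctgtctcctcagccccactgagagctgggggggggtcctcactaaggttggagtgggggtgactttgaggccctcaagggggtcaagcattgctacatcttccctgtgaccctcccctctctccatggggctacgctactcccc
Ctsg promoter, chr14:56102575-56102824, minus strand: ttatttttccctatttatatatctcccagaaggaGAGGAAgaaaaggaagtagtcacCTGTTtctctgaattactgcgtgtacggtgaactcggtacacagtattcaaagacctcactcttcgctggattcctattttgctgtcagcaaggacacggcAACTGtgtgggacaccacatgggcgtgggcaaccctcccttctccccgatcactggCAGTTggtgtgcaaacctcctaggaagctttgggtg

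In Elane and Prtn3, the neighbouring protease genes, GAGGAA and AACGG stand in the same order and orientation. GAGGAA begins at -85 in Elane and -95 in Prtn3, counted from -1 at the last base before the RefSeq start, and AACGG begins at -50 and -55. The distance from the first base of one to the first base of the other is 35 bases in Elane and 40 in Prtn3. The Mpo window holds GAGGAA at -247 and -224, and the Ctsg window holds it at -216. RefSeq windows that also take in the 50 bases after the start were found for 6 of the 7 members, all but Cebpe, Gfi1 having 2 windows. Of these 6, 4 held GAGGAA against 28.3% of all 32851 promoters of this length, and the windows of Gfi1 and Myb did not hold it. AACNG was found in 6 of 6 against 80.3% of all promoters, a share that says little. The C/EBP letters TTGCNNAA were in 1 of 6, Gfi1, against 10.8%, and the Gfi1 letters AAATCNC in 0 of 6 against 11.7%. No match of GAGGAA overlapped one of AACNG in these windows. A match is a run of letters and was not tested as a binding site.

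The libraries held 11567073 to 32867818 reads on the listed genes, so that 3 reads correspond to 0.101 to 0.250 CPM (read counts relative to library size, scaled by the authors with the TMM method). Each of the 7 members was above this limit in every library, with 43 reads in the lowest case (Gfi1). Trem2 itself, the check of the genotype labels, averaged 4.56 ± 1.40 CPM in WT D0 and 16.8 ± 5.08 in WT D7, against 1.80 ± 0.71 in Trem2-/- D0 and 4.27 ± 0.64 in Trem2-/- D7 (SD, n = 4 each). The ranges of the genotypes do not overlap at D7, and Trem2-/- libraries still hold at least 15 Trem2 reads. No pair of replicates agreed within sampling noise. Joint tissue was looked for with 7 connective tissue genes, all of them present. Their presence cannot tell dissociated joint cells from homogenized joints. Col1a1, the main collagen of bone and ligament, averaged 7543 CPM in WT D0 and 39170 CPM in WT D7.

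Per kilobase of the principal transcript, a scale on which levels of different genes can be set side by side, the order of the means was the same in all 4 groups. Reads were counted by gene, and for Myb this transcript holds 3074 of 8933 exonic bases, against 1241 of 1241 for Cebpe. The place of Myb above Cebpe rests on this choice of length. In WT D0 the mean level was 388 ± 205 CPM per kb for Mpo, the peroxidase that makes hypochlorous acid, 241 ± 127 for Elane (neutrophil elastase), 183 ± 90.6 for Prtn3 (proteinase 3), 75.1 ± 38.9 for Ctsg (cathepsin G), 34.1 ± 15.9 for Myb, 22.0 ± 11.9 for Cebpe and 6.04 ± 3.04 for Gfi1 (SD, n = 4). Each neighbouring pair in this order stood the same way round in 16 of 16 libraries, apart from Myb and Cebpe, which did so in 14. Across libraries the ranges overlap widely. Elane and Prtn3 overlapped in each of the 4 groups, and no neighbouring pair was separate in more than 2 of them. The enzymes and proteases of the granule were the more abundant mRNAs, and the regulators the less abundant.

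Injury went with a fall of all 7 members in both genotypes. At D7 every WT library was below every WT D0 library for each member, and the same held in Trem2-/- mice. The fitted falls were 2.75- to 3.97-fold in WT and 4.65- to 6.15-fold in Trem2-/-. They are given gene by gene first and as counts after that. Fold changes and tests are from limma on the log2(CPM + 1) scale across 13173 genes, with Benjamini-Hochberg adjusted p-values. In bulk RNA a lower level can mean fewer cells of a type or less of the mRNA per cell, and these cannot be told apart here.

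**Figure D1:**
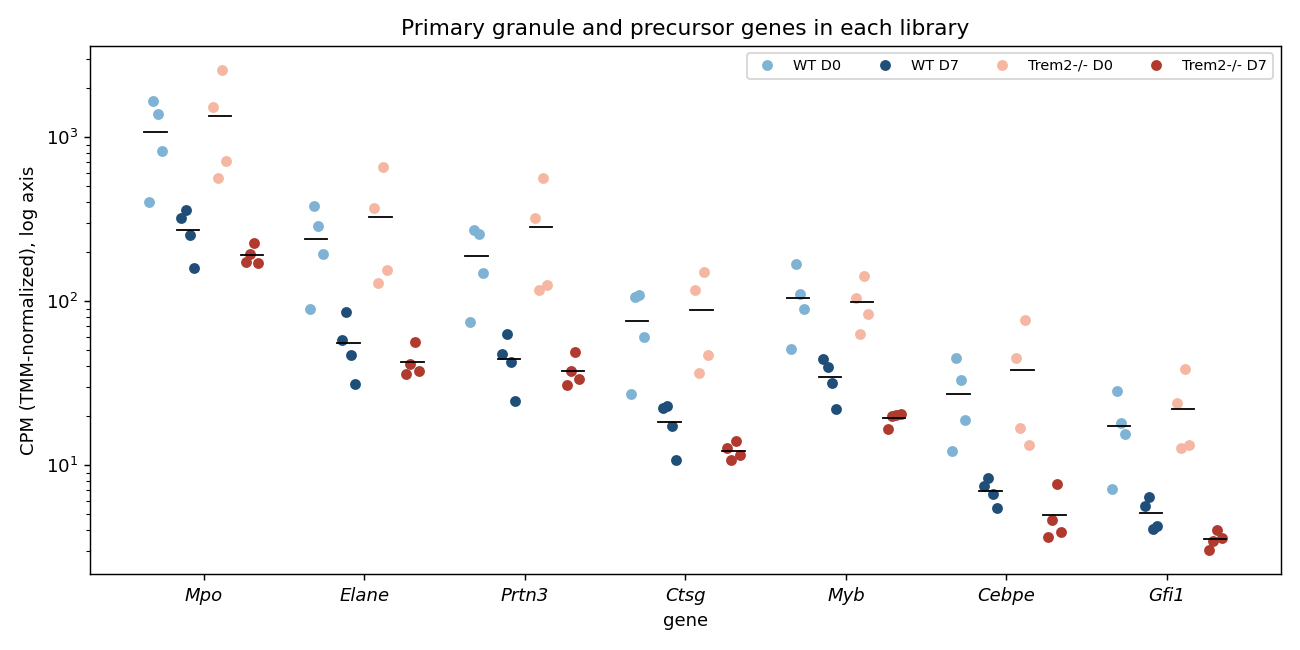
CPM of the 7 genes on a log axis, 1 point per library (4 per group) in the order of the replicate numbers, with a line at the group mean. For each gene the D7 points lie below the D0 points of the same genotype, and the D0 points are the more scattered, for Mpo from 399.5 to 1656 CPM in WT and from 561 to 2565 in Trem2-/-.

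Among the proteases, Elane degrades elastin and bacterial proteins. It measured 89.4, 382, 286 and 193 CPM in WT D0 replicates 1 to 4 and 57.5, 85.7, 46.7 and 31.1 in WT D7 replicates 1 to 4. The highest injured library, replicate 2, lay just under the lowest uninjured one, replicate 1. The fall was 3.97-fold (log2 change -1.99, SE 0.49, adjusted p = 0.0098). In Trem2-/- D0 the values were 370.3, 129, 655 and 154 CPM, and in Trem2-/- D7 they were 35.9, 41.1, 56.3 and 37.6. Here the groups are far apart, and the uninjured libraries differ 5.07-fold among themselves. The fall was 6.15-fold (log2 change -2.62, SE 0.49, adjusted p = 0.00049).

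Prtn3, a close relative of elastase with a similar cleavage preference, gave 74.9, 269.7, 257 and 148 CPM in WT D0 and 47.3, 62.9, 42.8 and 24.5 in WT D7. Replicate 1 is again the low library of WT D0, and replicate 4 the low one of WT D7. The WT fall was 3.89-fold (log2 change -1.96, SE 0.48, adjusted p = 0.0090). Trem2-/- D0 libraries measured 323, 117, 563 and 125 CPM, and Trem2-/- D7 libraries 30.9, 37.4, 48.8 and 33.3. In this genotype the fall was 6.01-fold (log2 change -2.59, SE 0.48, adjusted p = 0.00043).

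Ctsg, a chymotrypsin-like protease that neutrophil precursors share with monocyte precursors, stood at 27.0, 105, 108 and 60.4 CPM in WT D0 and at 22.2, 22.8, 17.3 and 10.7 in WT D7. The 2 highest injured libraries come within 5 CPM of the lowest uninjured one, without reaching it. The fall in WT was 3.61-fold (log2 change -1.85, SE 0.45, adjusted p = 0.0092). For Trem2-/- the values were 117, 36.2, 151 and 46.6 CPM at D0 and 12.7, 10.8, 14.0 and 11.51 at D7, a fall of 5.69-fold (log2 change -2.51, SE 0.45, adjusted p = 0.00037).

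Mpo, the most abundant member, held 59.9% to 63.4% of the summed CPM of the 7 genes in every library. Its enzyme turns hydrogen peroxide and chloride into hypochlorous acid in the phagosome. WT D0 libraries measured 399.5, 1656, 1386 and 827 CPM and WT D7 libraries 319, 358, 253 and 159, so that replicate 2 was highest in both. The fall was 3.58-fold (log2 change -1.84, SE 0.47, adjusted p = 0.011). Trem2-/- D0 libraries measured 1530, 561, 2565 and 713 CPM, against 172, 193, 227 and 170.0 at D7, where the 4 libraries differ 1.33-fold. There the fall was 5.89-fold (log2 change -2.56, SE 0.47, adjusted p = 0.00038).

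Of the regulators, Cebpe is a factor of the promyelocyte-to-myelocyte step. It read 12.2, 45.2, 33.0 and 18.9 CPM in WT D0 and 7.45, 8.33, 6.65 and 5.46 in WT D7, which are narrow injured values beside a 3.71-fold range of uninjured ones. It fell 3.20-fold (log2 change -1.68, SE 0.47, adjusted p = 0.017). Trem2-/- D0 gave 44.8, 16.8, 76.4 and 13.3 CPM and Trem2-/- D7 gave 3.66, 4.62, 7.62 and 3.92, a fall of 5.34-fold (log2 change -2.42, SE 0.47, adjusted p = 0.00059).

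Gfi1 was the least abundant member, at 7.17, 28.3, 18.1 and 15.5 CPM in WT D0 and 5.64, 6.40, 4.10 and 4.28 in WT D7. Its margin in WT is small, since replicate 2 of WT D7 is close to replicate 1 of WT D0. It fell 2.75-fold in WT (log2 change -1.46, SE 0.35, adjusted p = 0.0083). In Trem2-/- it measured 24.1, 12.8, 38.3 and 13.3 CPM at D0 and 3.02, 3.45, 4.03 and 3.59 at D7, a fall of 4.65-fold (log2 change -2.22, SE 0.35, adjusted p = 0.00013).

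Myb, a factor of stem and progenitor cells that also marks immature lymphoid and erythroid cells, measured 51.0, 168, 111 and 89.7 CPM in WT D0 and 44.4, 39.7, 31.7 and 21.9 in WT D7. Its WT D7 values have their peak in replicate 1, where the granule genes peak in replicate 2. The fall was 2.83-fold (log2 change -1.503, SE 0.31, adjusted p = 0.0038). In Trem2-/- the values were 105, 63.4, 143 and 82.8 CPM at D0 and 16.6, 19.9, 20.3 and 20.4 at D7. These injured libraries are the tightest set of any member, differing 1.23-fold, and the fall was 4.70-fold (log2 change -2.23, SE 0.31, adjusted p = 5.5e-05).

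Counted together, 7 of 7 members were called lower at D7 in WT by the study's rule (unadjusted p under 0.05 and an absolute log2 change over 0.322), where 18.2% of all genes tested were called lower and 19.3% higher. In Trem2-/- 7 of 7 were called lower against 27.9% of all genes lower and 26.5% higher. With an adjusted p under 0.05 the members' counts were again 7 and 7, against 12.6% and 27.2% of all genes. The 7 members whose D7 range lay wholly below their D0 range in each genotype stand beside 9.34% of all genes in WT and 26.3% in Trem2-/-. The members' median log2 change was -1.84 in WT and -2.51 in Trem2-/-, where the median of all genes was -0.045 and -0.042. Ordered by fold change from the lowest, Elane was 10th of 13173 in WT and 4th in Trem2-/-, Prtn3 was 11th and 5th, and Gfi1, the last of the 7, was 68th and 56th. No single library decided this: with any 1 of the 16 left out, 7 of 7 stayed called in both genotypes.

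**Figure D2:**
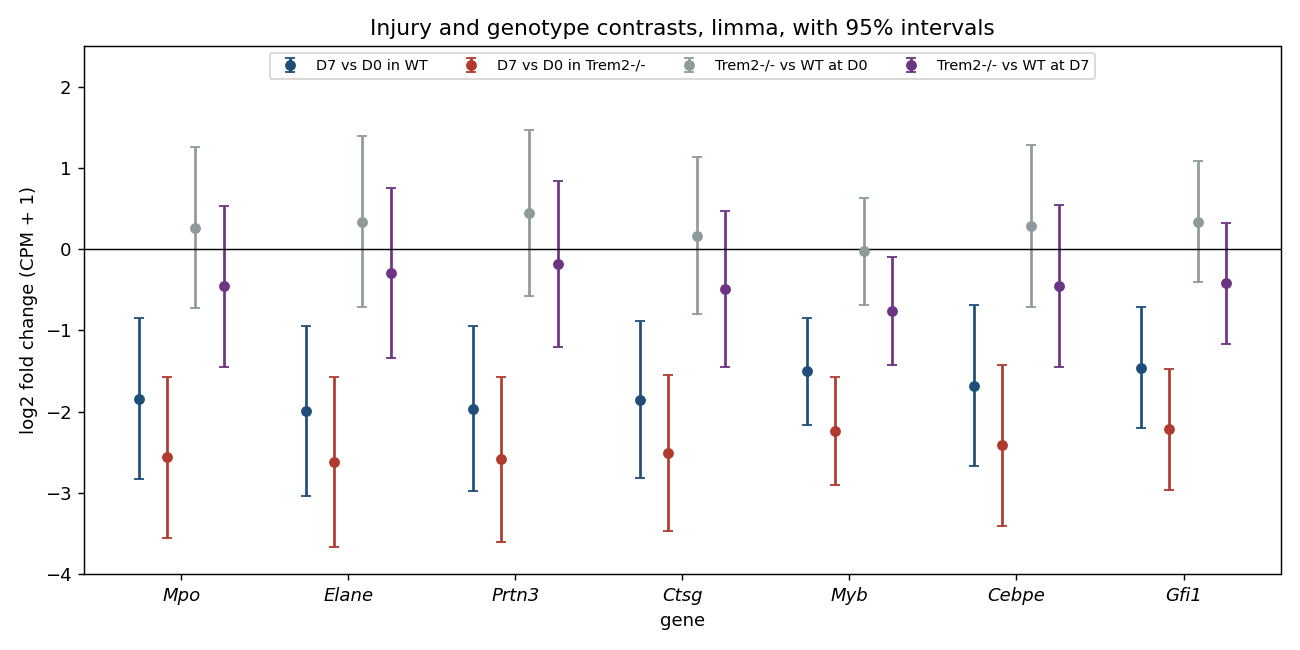
Log2 fold change of each gene with its 95% interval (limma, 4 libraries per group) for the 2 injury contrasts and the 2 genotype contrasts. The injury intervals lie wholly below 0, with point values from -2.62 to -1.46, and the genotype intervals include 0 apart from Myb at D7 (-1.42 to -0.10).

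The fall was also set against that of other leukocyte genes of the same libraries, a scaling added after the data were seen. Relative to the mean log2 value of 6 genes that most leukocytes use, among them Ptprc and Lcp1, the WT falls of the members came to -1.17 (Elane), -1.14 (Prtn3), -1.03 (Ctsg), -1.02 (Mpo), -0.86 (Cebpe), -0.69 (Myb) and -0.64 (Gfi1) on the log2 scale. On that scale 6 of 7 remained called lower in WT, Gfi1 being the exception, against 0.357% of all genes. By limma the adjusted p was 0.025 (Prtn3) to 0.040 (Mpo) for the granule genes. It was above 0.05 for Cebpe (unadjusted p = 0.035, adjusted p = 0.063) and Myb (unadjusted p = 0.049, adjusted p = 0.080). The leukocyte genes themselves fell, so this scaling raises the change of every gene. The share of all genes called lower is therefore small by construction. In Trem2-/- the relative changes were -0.83 (Elane) to -0.42 (Gfi1) and 0 of 7 were called, against 0.0911% of all genes. The unadjusted p of Elane there was 0.060. Relative to 8 genes of mature neutrophils, such as S100a8 and Cxcr2, members stood at -0.80 (Elane) to -0.27 (Gfi1) in WT and -0.57 to -0.17 in Trem2-/-. None of the 7 was called on this scale in either genotype, where 0.0228% and 0% of all genes were called lower. These shares too are small by construction, since the mature neutrophil genes fell. All members had a negative value on both scales in both genotypes, but those relative to the mature neutrophil genes had unadjusted p from 0.083 (Elane in WT) to 0.71 (Gfi1 in Trem2-/-) in limma.

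Between genotypes no difference was detected before injury. In Trem2-/- D0 against WT D0, 0 of 7 members were called by limma, where 2.15% of all genes were called in either direction. None had an unadjusted p under 0.05, by limma, and edgeR's quasi-likelihood test on the recovered reads also called 0. The log2 differences were 0.45 for Prtn3, 0.34 for Elane and Gfi1, 0.28 for Cebpe, 0.26 for Mpo, 0.17 for Ctsg and -0.03 for Myb. The ranges of the genotypes overlap for each member. The Mpo difference becomes -0.15 without WT D0 replicate 1 and -0.14 without Trem2-/- D0 replicate 3. The libraries of a group are so unlike one another that the intervals are wide: for Mpo the 95% interval runs from -0.73 to 1.253 and for Prtn3 from -0.57 to 1.46, which takes in a difference of more than 2-fold. The fit shares its spread with the less scattered D7 libraries, which narrows these intervals.

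After injury the Trem2-/- means of all 7 members were below the WT means, and 1 of 7 was called by limma's unadjusted rule, where 4.53% of all genes were called lower. That gene was Myb, at 19.3 ± 1.80 CPM in Trem2-/- D7 and 34.4 ± 9.88 in WT D7 (SD, n = 4), 1.69-fold lower (log2 difference -0.76, SE 0.31, limma unadjusted p = 0.027, adjusted p = 0.62). With only the D7 groups in the fit 4 of 7 were called, where 6.79% of all genes were called lower, and with an adjusted p 0 of 7. The main fit shares its spread with the more scattered D0 libraries, which widens its D7 intervals. The Myb call is lost without WT D7 replicate 1, WT D7 replicate 2 or Trem2-/- D7 replicate 1, and relative to the leukocyte genes the difference is -0.05. Myb and Gfi1 were the members whose ranges did not overlap, with a highest Trem2-/- D7 value of 20.4 CPM against a lowest WT D7 value of 21.9 for Myb and 4.03 against 4.10 for Gfi1, both narrow gaps. Over all genes 4.78% had a Trem2-/- range wholly below the WT range. Elane, Mpo, Prtn3, Ctsg and Cebpe overlapped between genotypes. Mpo measured 319, 358, 253 and 159 CPM in WT D7 replicates 1 to 4 and 172, 193, 227 and 170.0 in Trem2-/- D7, with a log2 difference of -0.46 (95% interval -1.45 to 0.53), and Prtn3 differed by -0.18 (-1.20 to 0.84). The 6 leukocyte genes were each called lower in Trem2-/- D7 (median log2 difference -0.70) beside a median of -0.45 for the members. The leukocyte count is 3 without WT D7 replicate 3, Trem2-/- D7 replicate 1 or Trem2-/- D7 replicate 2. What part the leukocyte level has in the members' difference was not tested.

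The interaction, which asks whether the injury change differs between the genotypes, was called for 0 of 7 members by limma against 7.79% of all genes. Its estimates lay between -0.76 (Gfi1) and -0.63 (Prtn3) on the log2 scale, which is a larger fall in Trem2-/-, with unadjusted p-values of 0.12 (Myb) to 0.38 (Elane) by limma. None of the members had an unadjusted p under 0.05, and across all genes 0 passed the adjusted threshold by limma or by edgeR (1075 had an unadjusted p under 0.05 by limma). Without WT D0 replicate 2, 2 of 7 members were called, against 17% of all genes. The larger falls in Trem2-/- than in WT given above are therefore values side by side and not a detected difference. For Mpo the 95% interval of the interaction runs from -2.12 to 0.68. Relative to the leukocyte genes the estimates turn positive for all 7 members, from 0.22 to 0.35, and relative to the mature neutrophil genes from 0.10 to 0.24.

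The members rose and fell together from library to library. Mpo measured 399.5, 1656, 1386 and 827 CPM in WT D0 replicates 1 to 4 and 1530, 561, 2565 and 713 in Trem2-/- D0, and the rank of the libraries within WT D0 was the same (2, 3, 4, 1) for 6 of the 7 genes, Ctsg being highest in replicate 3. In Trem2-/- D0 the rank was 3, 1, 4, 2 for 6 genes, with the last 2 libraries exchanged for Cebpe. Pearson's r between 2 members over the 16 libraries on the log2 scale was 0.943 to 0.997, with a median of 0.98. After each group's mean is taken away it was 0.82 to 0.99 with a median of 0.94 over the 21 pairs, lowest for Cebpe with Myb. These are descriptions over libraries that also share depth, scaling and the makeup of each sample.

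A ratio within a library shows the same in plain terms. Elane stood at 18.0% to 25.6% of the Mpo CPM across the 16 libraries, Prtn3 at 14.8% to 21.9% and Ctsg at 5.57% to 7.81%, while Mpo itself spanned 159 to 2565 CPM. Cebpe ranged from 1.86% to 3.45% and Gfi1 from 1.31% to 2.70%. Myb was the loosest of the 6, at 5.58% to 13.9%, and was lowest against Mpo in Trem2-/- D0 replicate 3, where Mpo was highest. By group, Prtn3 averaged 17.9% ± 1.12 of Mpo in WT D0, 16.2% ± 1.26 in WT D7, 20.4% ± 1.94 in Trem2-/- D0 and 19.6% ± 1.49 in Trem2-/- D7 (SD, n = 4). The Prtn3 ratios of WT D7 (14.8% to 17.6%) lay below those of Trem2-/- D7 (17.9% to 21.6%) without overlap, while the ranges of the 2 uninjured groups overlapped. This pair was singled out after its values were seen, and no test was made on the ratios.

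**Figure D3:**
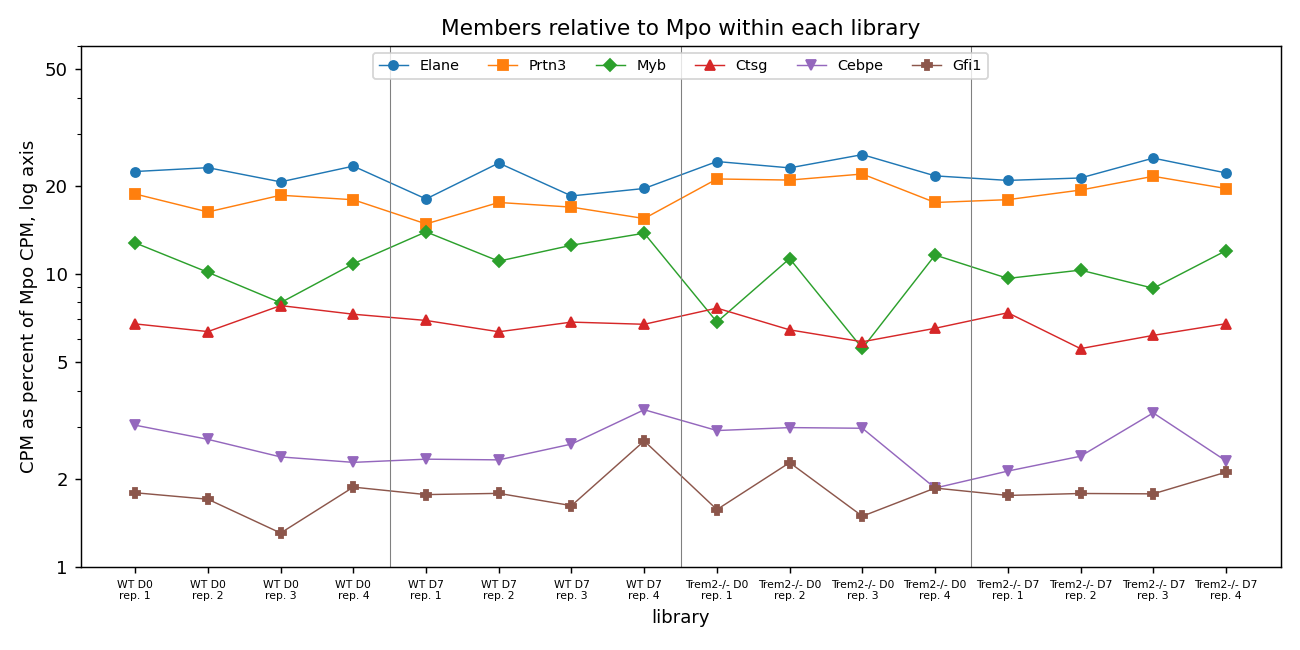
CPM of 6 members as a percent of the Mpo CPM of the same library, on a log axis, for the 16 libraries in group order (grey lines part the groups). Elane (18.0% to 25.6%), Prtn3 and Ctsg (5.57% to 7.81%) run nearly level across groups, while Myb varies from 5.58% to 13.9%.

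Other genes of the primary granule and the promyelocyte behaved in part like the members. Of 11 such genes, Lyz2 and Bpi have no row in the table used here and 9 were tested. In both genotypes 6 were called lower and 2 higher. Among the 3 most abundant, Srgn, the proteoglycan core that packs granule proteins, fell by 0.91 on the log2 scale in WT and by 1.67 in Trem2-/-. Cd63, a granule and lysosome membrane protein found in many cell types, rose by 0.48 and 1.06, and Gusb, a lysosomal enzyme of most cells, rose by 0.55 and 0.45. The less abundant genes named next were chosen after their values were seen. Ms4a3, a marker of the granulocyte-monocyte progenitor, changed by -2.05 in WT and -2.31 in Trem2-/-, Prss57, another granule serine protease, by -1.59 and -2.18, and Fcnb, a ficolin of immature neutrophils, by -1.87 and -2.57, all called. Ctsc, which activates the granule proteases and is made by many cells, was not called (0.07 and -0.18). For this list and those below, the shares of all genes called lower and higher were 18.2% and 19.3% in WT. In Trem2-/- they were 27.9% and 26.5%.

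Among 9 other regulators of granulopoiesis tested, 6 were called lower in both genotypes, with 1 called higher in WT and 2 in Trem2-/-. Csf3r, the G-CSF receptor, changed by -0.90 on the log2 scale in WT and -2.09 in Trem2-/-, and Cebpb, the factor of emergency granulopoiesis, by -1.07 and -1.39. Klf4, a monocyte factor that stromal cells also express, rose by 0.54 (limma unadjusted p = 0.050, adjusted p = 0.12) and 0.66. Of 10 progenitor genes, 2 were called lower and 1 higher in WT, where 18.2% and 19.3% of all genes were. In Trem2-/- 4 were called lower and 2 higher, where 27.9% and 26.5% of all genes were. Without WT D0 replicate 1 the WT count of 3 progenitor genes called is 5. The progenitor list has a median log2 change of -0.08 in WT and 0.01 in Trem2-/-, and its most abundant gene, Cd34, is also an endothelial and stromal gene.

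The next stages of the neutrophil moved with the members. All 9 secondary granule genes, such as Ngp and Ltf, were called lower in each genotype, with a median log2 change of -1.54 in WT and -2.38 in Trem2-/-. Ngp averaged 5662 ± 2670 CPM in WT D0 and 1857 ± 637 in WT D7 (SD, n = 4). Of 8 genes of mature neutrophils, 7 were called lower in WT (median -1.22) and 8 in Trem2-/- (median -2.08). S100a9, an alarmin of the mature cell, averaged 8252 CPM in WT D0 and 3199 in WT D7. The members' median changes, -1.84 and -2.51, are the lowest of these 3 lists, and differences between lists were not tested apart from the scaling given above.

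Erythroid, pro-B and pre-B, eosinophil and leukocyte genes fell too. All 8 erythroid genes tested were called lower in both genotypes (median log2 change -1.33 in WT and -1.79 in Trem2-/-), with a summed level of 1402 to 2396 CPM in WT D0 and 428 to 1495 in WT D7. Of 9 pro-B and pre-B genes, 8 were called lower in each genotype (median -1.44 and -1.67), with sums of 144 to 292 CPM in WT D0 and 82.1 to 139 in WT D7. The exception, Ebf1, is also made by adipocyte and stromal cells, and was called higher in Trem2-/- (0.66). It is part of these sums, at a mean of 48.5 CPM in WT D0 and 60.2 in WT D7, so the sums understate the fall of the others. Cd79a and Rag1, the next in abundance, averaged 72.9 and 41.3 CPM in WT D0 and 25.3 and 15.2 in WT D7. The 4 eosinophil genes were called lower in both, with sums of 63.3 to 507 CPM in WT D0 and 30.4 to 70.9 in WT D7. Without WT D0 replicate 2 the WT eosinophil count is 2, and the Trem2-/- count is 2 without any one of WT D7 replicates 2 and 4, Trem2-/- D0 replicate 1 and Trem2-/- D7 replicates 2, 3 and 4. The 6 leukocyte genes were called lower in both (median -0.75 and -1.77), and in WT 3 were called without WT D7 replicate 1. Of 8 cell cycle genes, 1 was called lower in WT, where 18.2% of all genes were, and 5 in Trem2-/-, where 27.9% were. Mki67 stood at -0.45 and -1.04. These cell cycle counts rest on single libraries, running from 0 to 5 in WT (5 without WT D0 replicate 1) and from 2 to 6 in Trem2-/- (2 without Trem2-/- D0 replicate 3) with 1 library left out. By the erythroid sums and the Cd79a and Rag1 levels, the WT libraries held RNA of erythroid and of pro-B and pre-B genes. Genes were tested only if they reached 1 CPM in 4 or more libraries, so the presence of tested genes in a list shows nothing more. The part of other lineages in the members' fall was not tested.

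In the other direction, 5 of 7 connective tissue genes were called higher at D7 in WT and 6 of 7 in Trem2-/- (median log2 change 2.85 and 4.398). Their summed level spanned 10060 to 50160 CPM in WT D0 and 109300 to 148800 in WT D7. In Trem2-/- it spanned 7713 to 16080 CPM at D0 and 102500 to 147300 at D7. CPM values are relative to the rest of a library, so these connective tissue sums stand beside every fall given here. After the TMM scaling they are not plain shares. All listed genes together summed to 826216 to 957113 CPM in the D0 libraries and 1.04e+06 to 1.17e+06 in the D7 libraries. How far the scaling offsets the connective tissue rise was not tested. Macrophage genes were mixed, 4 of 6 called higher in WT, and 3 higher and 2 lower in Trem2-/-. C1qa, a complement gene of tissue macrophages, rose by 2.25 and 2.02, the largest rise of the list in both genotypes. Csf1r stood at 0.72 in WT and -0.04 in Trem2-/-, and Cd68 at 0.23 and -0.42, the last being called lower. Of 6 mast cell genes, 3 were called lower in each genotype.

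**Figure D4:**
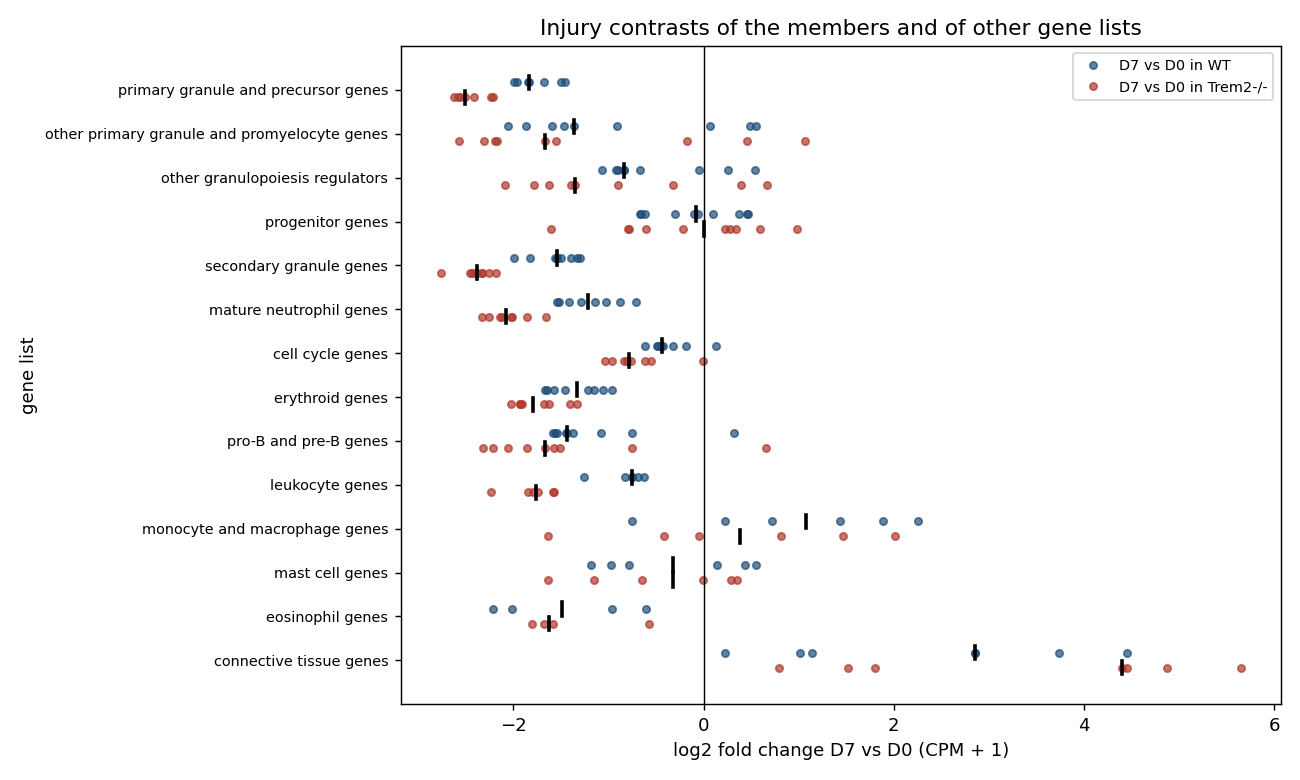
Log2 fold change at D7 against D0 of each tested gene (points) and the median (black bar) for the 7 genes and 13 other lists, in WT (blue) and Trem2-/- (red). The medians of the 7 genes are -1.84 and -2.51, the secondary granule, mature neutrophil, erythroid and pro-B lists also lie below 0, and the connective tissue list lies above it at 2.85 and 4.398.

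Within groups, the lists that followed the members most closely were not all neutrophil lists. With the group means removed, Pearson's r of the members' mean log2 value over the 16 libraries was 0.96 with the other primary granule genes, 0.96 with the cell cycle genes, 0.87 with the eosinophil genes and 0.84 with the secondary granule genes. It was 0.63 with the erythroid genes, 0.53 with the leukocyte genes, 0.50 with the pro-B and pre-B genes, 0.45 with the mature neutrophil genes and 0.11 with the progenitor genes, and -0.52 with the connective tissue genes. Progenitor genes taken singly ran from -0.82 to 0.83 against the mean of the members, each divided by its SD. Their list value therefore averages opposite signs. The D0 libraries, with the wider spread, weigh most in all these values. These values describe 16 libraries that share their depth and scaling with both sides of each pair. Genes of dividing cells stood closer to the members than genes of the mature neutrophil did, as a description with no test.

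Gene by gene, the 8 non-members most like the members' mean over the 16 libraries were Nkg7 (r = 0.994), Rps6ka1 (0.992), Lyl1 (0.991), Cst7 (0.991), Mogat2 (0.989), H2afy (0.988), Fcnb (0.987) and Clec12a (0.987). In all, 253 of 13166 genes had an r over 0.95, and the members' own values ran from 0.974 to 0.999. Nkg7, a granule membrane protein of cytotoxic lymphocytes also made by myeloid precursors, averaged 22.7 ± 12.1 CPM in WT D0, 6.23 ± 1.89 in WT D7, 27.7 ± 17.2 in Trem2-/- D0 and 4.10 ± 0.83 in Trem2-/- D7 (SD, n = 4). Lyl1, a transcription factor of blood progenitors, averaged 32.7 ± 14.8, 13.4 ± 3.88, 41.5 ± 21.3 and 9.11 ± 0.50 CPM in the same order. Both were picked by their r over these same libraries, so the members' wide spread at D0 and narrow spread at D7 come with the choice.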

How the data were processed

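Bulk RNA-seq of knee joint cells was analysed, 4 libraries per group. The deposited signal values are TMM-normalized CPM, which the authors made with bcl2fastq, STAR alignment to mm10, featureCounts and edgeR; versions, annotation and strand setting are not given in the sources used here. The 2 identical entries for Fcgr1 were treated as 1 gene. All values (100%) were whole multiples of 1 read within 0.1, so reads were recovered. The study's methods name limma-voom on counts. The deposited values being CPM, log2(CPM + 1) was tested with limma 3.58.1 (trend, 4 groups as one factor, R 4.3.3) on genes that reached 1 CPM in 4 or more libraries, and edgeR 4.0.16 and voom on the recovered reads were alternatives. The 7 genes and the other lists were chosen with earlier results of these data known. Named genes are the members, Trem2, the 3 most abundant genes of a list and the 8 genes most like the members, and others are said to be chosen later. Ptprc and Cxcr2, outside this rule, are named only as examples of their lists. The other alternatives were pseudocounts of 0.1 and 5, no filter, median-of-ratios size factors, quantile normalization, a mean CPM of 5 or more, only the groups compared, no trend, a replicate block, each library left out, a fold change over 1.5 and an adjusted p under 0.05. Limits given in reads cover counting error only. The tests were checked on simulated data.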

Additional observations from a re-analysis of the deposited data

Results flagged for a closer look

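Of 80 sets of 4 libraries checked (7 members and 13 lists in 4 groups), 4 had 1 library far from the other 3, where chance gives about 4. Myb in Trem2-/- D7 replicate 1 was low, at 16.6 CPM against 19.9 to 20.4 (gap over range 0.864), and the Myb difference between genotypes at D7 is no longer called without that library. In WT D7 replicate 4 the progenitor list was low, with a mean log2 value of 4.07 against 4.33 to 4.34 (0.965), and the connective tissue list was high, at 12.9 against 12.6 (0.947). Mpo, Elane, Prtn3, Ctsg, Cebpe and Myb were at their WT D7 lowest in the same library. The eosinophil list was low in Trem2-/- D7 replicate 4, at 2.35 against 2.98 to 3.10 (0.833).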

How the results depend on the processing

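At D7 against D0 the count of 7 members called held under the alternatives set at the start in both genotypes, and in all comparisons it was the same under the replicate block (7, 7, 0, 1 and 0). Replicate numbers were not taken to pair the libraries, since r between same-numbered deviations was over 0.1 in 3 of 4 WT pairs (0.046 to 0.41) and in 1 of 4 Trem2-/- pairs (-0.20 to 0.11), where all would have to be. In WT, 3 of 4 libraries correlated best with their own number, a hint from the data and not from the design. Relative to the mature neutrophil genes, 0 were called in WT and 0 in Trem2-/-, and relative to the leukocyte genes 6 in WT and 0 in Trem2-/- (both scales chosen after seeing the data). For Trem2-/- against WT at D7 the count of 1 became 4 with only the groups compared (6.79% of all genes called lower, against 4.53%), 0 with an adjusted p, 0 on each relative scale and 0 to 1 with 1 library left out. The interaction's count of 0 ranged from 0 to 2 with 1 library left out, 2 without WT D0 replicate 2 (17% of all genes called, against 7.79%). With 1 library left out, the D0 genotype differences crossed 0 for Elane (-0.10 to 0.68), Mpo (-0.15 to 0.59), Ctsg (-0.25 to 0.50), Cebpe (-0.16 to 0.65), Gfi1 (-0.00080 to 0.61) and Myb (-0.33 to 0.24), and the D7 difference for Prtn3 (-0.43 to 0.0085). Uncalled log2 values that changed sign relative to the leukocyte genes were, for D0, Mpo -0.0093 and Ctsg -0.10, for D7, Elane 0.41, Mpo 0.25, Prtn3 0.53, Ctsg 0.22, Cebpe 0.25 and Gfi1 0.29, and for the interaction, Elane 0.35, Mpo 0.26, Prtn3 0.35, Ctsg 0.32, Cebpe 0.24, Gfi1 0.22 and Myb 0.25. Relative to the mature neutrophil genes they were, for D0, Elane -0.034, Mpo -0.11, Ctsg -0.21, Cebpe -0.089 and Gfi1 -0.033, for D7, Elane 0.20, Mpo 0.032, Prtn3 0.31, Cebpe 0.036 and Gfi1 0.069, and for the interaction, Elane 0.23, Mpo 0.14, Prtn3 0.24, Ctsg 0.20, Cebpe 0.13, Gfi1 0.10 and Myb 0.13. Why the scales differ was not tested. With 4 libraries a group, the 95% intervals of the granule genes reach about 1 log2 unit to either side, which limits what the genotype comparisons can detect. These intervals use 1 spread for all 4 groups, although D0 libraries were the more scattered. The log2 SD of Mpo was 0.92 in WT D0 and 1.01 in Trem2-/- D0, against 0.52 in WT D7 and 0.19 in Trem2-/- D7. The shared spread thus narrows the D0 genotype intervals and widens those at D7.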
